A study of Mus musculus with 6 samples.

Results

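The genes described here are 10 cadherins, Cdh11, Cdh2, Cdh1, Cdh3, Cdh4, Cdh5, Cdh6, Cdh10, Cdh13 and Cdh15, taken by gene name from a table of 54433 genes. All 10 were found in it, with 1 row each. Their RNA was sequenced from MC3T3-E1 cells, an osteoblast-like line derived from mouse calvaria. The 3 FR libraries came from cells of this line made resistant to 30 ppm fluoride, by keeping them in a 10 ppm fluoride gradient until they proliferated normally. The labels say that this was repeated for further clones, but not which clone gave the FR libraries. The FR samples are also labelled as exposed to a 30 ppm gradient, so a lasting change and the presence of fluoride cannot be told apart. The 3 WT libraries came from unselected wild-type cells grown in Dulbecco's modified Eagle medium, and serum, penicillin and streptomycin were in the medium of the whole study. The series title speaks of fluoride-tolerant mice, whereas the samples are labelled as this cell line, with no other allele or agent named for either group. Whether each library had a culture of its own is not stated, and the p-values cover only the spread among libraries, which may be technical.

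Cadherins are single-pass or membrane-anchored proteins that hold neighbouring cells together through calcium-dependent binding of their outer domains. Inside the cell, classical cadherins bind beta-catenin or plakoglobin, which attach to alpha-catenin and the actin cytoskeleton, and p120-catenin, which keeps the cadherin at the cell surface. Cdh11, also called OB-cadherin, and Cdh2, or N-cadherin, are known as the main cadherins of osteoblasts. Type I members are Cdh1, Cdh2, Cdh3, Cdh4 and Cdh15, type II members are Cdh5, Cdh6, Cdh10 and Cdh11, and Cdh13 is held by a lipid anchor and has no cytoplasmic tail.

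The libraries summed to between 19246100 and 25185700 expected counts in FR and between 25700500 and 27140700 in WT. At this depth 3 counts in a library equalled between 0.120 and 0.156 CPM in FR and between 0.110 and 0.117 CPM in WT, where CPM are counts scaled to a common library size. These floors cover counting error only. Of the 10 osteoblast markers listed, 6 were tested and all 6 were lower in FR, where 35.5% of all tested genes were lower at the same threshold, with a summed level of 4160 to 4207 CPM in FR and 15657 to 15958 CPM in WT. Of the other 4, Ibsp was at 0, and Sp7, Alpl and Bglap reached at most 2 counts in an FR library and 8 in a WT library. The osteocyte markers Dmp1, with 0.572 ± 0.253 CPM in FR and 7.63 ± 0.768 CPM in WT, and Phex, with 3.84 ± 0.493 CPM in FR and 7.14 ± 0.0658 CPM in WT, were among the 6 (SD, n = 3 each). Most of the summed level came from 2 collagen genes. Col1a1 had 635 CPM in FR and 5055 CPM in WT on average, and Col1a2 had 3104 and 9282 CPM. Runx2, also among the 6, fell by little (log2 fold change -0.29 ± 0.04 SE).

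Cdh11 reads have a close set of relatives in the mouse genome, and their sequences are shown first because the low FR value of Cdh11 has to be read against them. In the GENCODE M21 transcripts, which are of build GRCm38 and not the authors' GRCm39, 7 other loci, annotated as pseudogenes or noncoding processed transcripts, share at least 100 words of 31 bases with Cdh11. They align to Cdh11 with 92.8% to 96.3% identity, over parts that lie between its 5′ UTR and coding base 973 of 2388. Of all 31-base words in the Cdh11 transcript, 7.46% also occur in a transcript of another gene. The lines below give bases 73 to 222 of the Cdh11 coding sequence, as long as a read of 150 bases, and the matching stretch of the 2 loci with the most counts. Capitals mark bases at which a locus differs from Cdh11, and in the Cdh11 line bases at which either locus differs.
Cdh11: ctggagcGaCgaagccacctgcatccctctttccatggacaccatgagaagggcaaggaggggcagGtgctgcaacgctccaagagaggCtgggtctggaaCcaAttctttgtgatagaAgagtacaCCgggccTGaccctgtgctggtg
2610005L07Rik: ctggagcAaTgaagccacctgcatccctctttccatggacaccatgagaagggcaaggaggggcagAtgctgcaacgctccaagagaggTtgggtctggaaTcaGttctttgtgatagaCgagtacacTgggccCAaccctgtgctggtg
Gm21811: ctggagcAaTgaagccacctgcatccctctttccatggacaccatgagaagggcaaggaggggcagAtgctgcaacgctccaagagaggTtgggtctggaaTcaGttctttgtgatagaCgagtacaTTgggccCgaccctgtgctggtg
Each locus differed from Cdh11 at 10 of the 150 bases. This stretch had the fewest differences, taken over both loci, among those searched, which were free of gaps and did not cover the whole alignment. Closer stretches may lie outside the search, so 10 is not the fewest differences that a read could show. Over its aligned part Gm21811 was 95.7% identical to Cdh11, and 2610005L07Rik was 92.8% identical. The longest identical run between Cdh11 and any of the 7 loci was 74 bases. By contrast, no other cadherin of the 10 shared more than 17 identical bases in a row with Cdh11 in its coding sequence. The longest such run between any pair of the 10 was 26 bases, between Cdh2 and Cdh1. Of the Cdh2 words 0.142% occurred in another gene.

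Cdh11 was the cadherin that differed most between FR and WT cells among the 4 tested. Cdh11 (ENSMUSG00000031673) had 261, 354 and 270 expected counts in the FR libraries, against 10909, 10129 and 10434 in the WT libraries. In CPM these were 13.6, 14.2 and 12.8 in FR, against 400, 393 and 407 in WT. Every FR library lay far below every WT library, and the spread within each group was small. The group values were 13.5 ± 0.704 CPM in FR and 400 ± 6.97 CPM in WT (SD, n = 3 each). The log2 fold change was -4.89 ± 0.04 SE, a level 29.6-fold higher in WT (edgeR quasi-likelihood test, adjusted p = 3.38e-35). By size of fall Cdh11 ranked 122 among all 14889 tested genes, and 6 among the 2289 of these with a WT mean of at least 100 CPM. That cut used only WT, the group in which Cdh11 is high, so the second rank is a description. Reads of Cdh11 could also have been counted for Gm45257, a transcript of unproven status inside the gene on the same strand, which had 0, 0 and 1 counts in FR, against 19, 12 and 25 in WT. In a bulk sample, fewer cells carrying a transcript and less of it per cell cannot be told apart.

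Cdh2, the N-cadherin gene, also fell, but by little. Cdh2 (ENSMUSG00000024304) had 144, 142 and 143 CPM in the FR libraries, against 157, 160 and 166 CPM in the WT libraries. The groups did not overlap, yet the highest FR library and the lowest WT library were close. The group values were 143 ± 1.24 CPM in FR and 161 ± 4.86 CPM in WT (SD, n = 3 each), with a log2 fold change of -0.17 ± 0.03 SE (edgeR adjusted p = 1.23e-05). The log2 ratio of Cdh11 to Cdh2 counts, which does not depend on library scaling, was -3.41, -3.32 and -3.49 in FR, against 1.35, 1.29 and 1.29 in WT. In FR libraries Cdh2 thus had more counts than Cdh11, and in WT libraries Cdh11 had more than Cdh2. An exact two-sided permutation test of this ratio gave p = 0.1, the smallest value that 3 against 3 libraries can give.

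**Figure D1:**
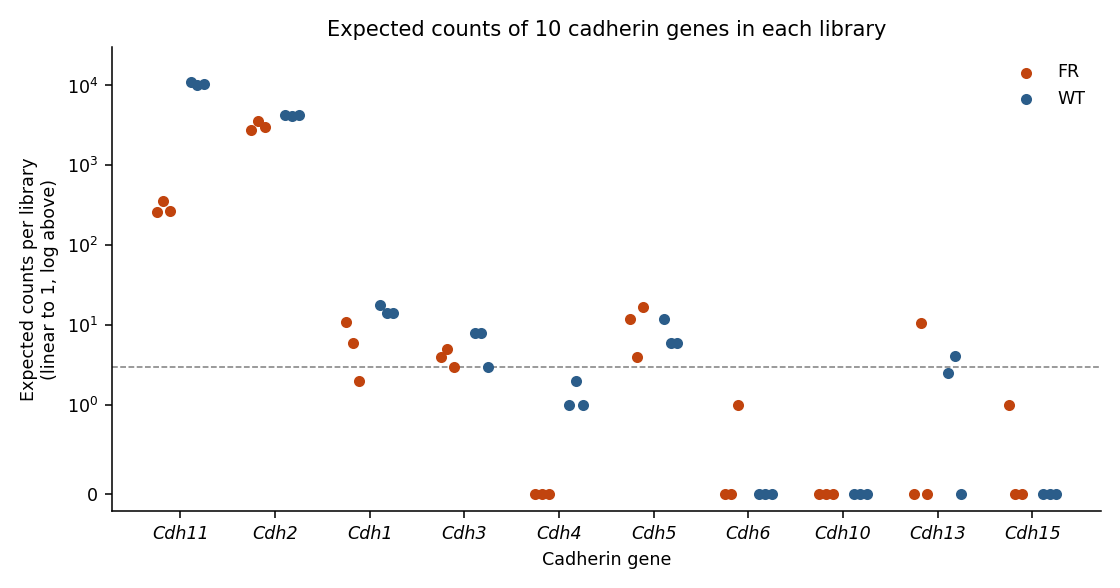
Expected counts of the 10 cadherin genes in each library, on an axis that is linear up to 1 and logarithmic above, with FR points left of WT points for each gene and a dashed line at 3 counts. Cdh11 and Cdh2 stand above all other members, and for Cdh11 the 3 FR libraries lie between 261 and 354 counts, below the WT libraries at 10129 to 10909.

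Of the 10 members 4 could be tested, of which 2 fell, none rose and 2 did not pass. Over all 14889 tested genes, 70.1% passed at this threshold (adjusted p under 0.05), with 35.5% lower and 34.6% higher in FR. The count of members called lower is therefore close to the background. For 2 of the 4 tested members the libraries did not overlap, FR below WT, against 36.6% of all tested genes (72.4% without overlap in either direction). A fall of at least 16-fold, as seen for Cdh11, was found for 1.54% of tested genes. The median log2 fold change of the 4 tested members was -0.58, against 0.00 for all tested genes.

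Cdh1, the epithelial E-cadherin, was near the detection limit. It had 11, 6 and 2 counts in the FR libraries, against 18, 14 and 14 in the WT libraries. The FR libraries varied widely, and the lowest WT library in CPM (0.543) lay below the highest FR library (0.571). Its log2 fold change was -0.98 ± 0.48 SE and did not pass (edgeR adjusted p = 0.0711). Cdh1 passed the filter on low counts mainly through its WT libraries, which bears on the sign of its value. Without FR replicate 1, which had 11 counts, it passed, at -1.74 (adjusted p = 0.0100). It also passed with limma-voom, at -1.21 (adjusted p = 0.0384), and in no other setting in which it was tested.

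Cdh5, the VE-cadherin of endothelial cells, was as low. It had 12, 4 and 17 counts in the FR libraries, against 12, 6 and 6 in the WT libraries. The ranges overlapped, since FR replicate 2 was the lowest library of all. The log2 fold change was 0.74 ± 0.52 SE and did not pass (edgeR adjusted p = 0.205). Without FR replicate 2 it passed, at 1.21 (adjusted p = 0.0334).

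Cdh3, or P-cadherin, was too low to be tested. It had 4, 5 and 3 counts in the FR libraries, against 8, 8 and 3 in the WT libraries. With no filter on low counts its log2 fold change was -0.41, with a 95% interval from -1.81 to 0.99, which is wide at this depth. Cdh13, or T-cadherin, had 0, 10.65 and 0 counts in the FR libraries, against 2.51, 4.15 and 0 in the WT libraries, and its FR value thus came from FR replicate 2 alone. Cdh4, or R-cadherin, had 0 counts in every FR library, against 1, 2 and 1 in the WT libraries, all under the floor of 3 counts. Cdh6 had 0, 0 and 1 counts in FR and 0 in each WT library. Cdh15, the M-cadherin of muscle, had 1, 0 and 0 counts in FR and 0 in each WT library. The readthrough gene Gm20388 overlaps Cdh15 on the same strand and had 1418 to 1660 counts in FR and 1425 to 1480 in WT, so reads of Cdh15 could have been counted there. Cdh10 was at 0 in all 6 libraries. The 8 members other than Cdh11 and Cdh2 together summed to between 23 and 28 counts per FR library, against 24 to 41.5 per WT library.

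The low members were set beside markers of the cell types they are known from. Of 12 epithelial markers none was tested, and Krt5, Krt19 and Cldn4 were at 0 in every library. Their summed level was 0.624 to 1.33 CPM in FR and 0.351 to 1.03 CPM in WT. The 10 endothelial markers summed to 2.93 to 4.52 CPM in FR and 4.35 to 4.65 CPM in WT, with Cldn5 and Sox17 at 0 throughout. The 2 tested moved in opposite directions: Emcn fell (log2 fold change -1.16 ± 0.22 SE) and Vwf rose (1.13 ± 0.29 SE). The 10 skeletal muscle markers summed to 8.45 to 8.83 CPM in FR and 16.4 to 17.2 CPM in WT, with Myod1 and Pax7 at 0 throughout. Pax3, which is also active outside muscle, made up most of the muscle sum in WT, with 1.88 ± 0.496 CPM in FR and 14.5 ± 0.332 CPM in WT (SD, n = 3 each). Des, or desmin, made up most of it in FR and rose, with 6.26 ± 0.409 CPM in FR and 1.77 ± 0.138 CPM in WT. The 10 blood cell markers summed to 9.58 to 11.4 CPM in FR and 1.38 to 2.19 CPM in WT. Csf1r, a receptor of the macrophage lineage, accounted for most of it in FR, with 7.13 ± 0.645 CPM in FR and 0.596 ± 0.204 CPM in WT. Cd68, a macrophage marker, also rose, with 2.26 ± 0.121 CPM in FR and 0.467 ± 0.237 CPM in WT. Ptprc, the pan-leukocyte marker, had 5, 3 and 3 counts in FR, against 0, 3 and 0 in WT, and was not tested. Spi1 had 1 count in FR replicate 1 and none elsewhere, and Tyrobp and Cd3e had none. The 10 neural and glial markers summed to 12.4 to 15.0 CPM in FR and 21.3 to 23.9 CPM in WT, with Sox2 at 0 throughout. Of these markers 3 were tested and fell, where 35.5% of all tested genes fell. Map2, with 0 counts in each FR library, against 48, 31 and 40 in WT, was among the 3 and passed the low-count filter only through WT. The part of these markers in the cadherin values was not tested.

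Scaled to gene length, the make-up of the cadherin signal turned over. The sum of the 10 members was 32.5, 32.0 and 32.0 CPM per kilobase in the FR libraries, against 104, 103 and 107 CPM per kilobase in the WT libraries. The WT mean was 3.24-fold higher. Cdh11 made up 7.42% ± 0.393 of this sum in FR and 67.8% ± 0.465 in WT (SD, n = 3 each). Cdh2 made up 91.6% in FR and 31.9% in WT of these 10 on average. Without Cdh11 the sum was 29.8 ± 0.318 CPM per kilobase in FR and 33.6 ± 0.928 CPM per kilobase in WT. The groups did not overlap for any of these 3 measures, and each exact two-sided permutation test gave p = 0.1, the smallest possible.

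**Figure D2:**
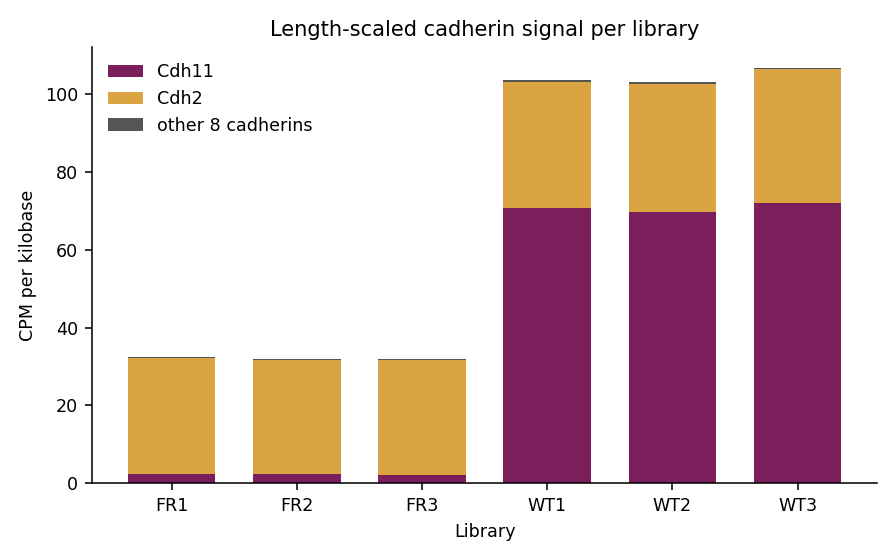
Stacked bars of CPM per kilobase of gene length in each library, with FR libraries on the left, split into Cdh11, Cdh2 and the other 8 cadherins. The FR bars reach about 32 and consist mostly of Cdh2, while the WT bars reach 103 to 107 and consist mostly of Cdh11.

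The 7 loci that share sequence with Cdh11 did not fall with it. They summed to 502 ± 14.2 CPM in FR and 384 ± 10.4 CPM in WT (SD, n = 3 each), so in FR they far exceeded the 13.5 CPM of Cdh11. These CPM count whole loci and are not scaled to length. The alignment spanned 986 bases of Cdh11 for 2610005L07Rik, whose transcript has 4009 bases, and 907 for Gm21811, whose transcript has 930. All 7 were tested, of which 4 were higher in FR, none was lower and 3 did not pass. Over all tested genes 34.6% were higher and 35.5% lower. 2610005L07Rik had 218 ± 2.79 CPM in FR and 152 ± 2.56 CPM in WT (log2 fold change 0.52 ± 0.03 SE, edgeR adjusted p = 1.02e-15). Gm21811 had 159 ± 10.7 CPM in FR and 127 ± 5.52 CPM in WT (0.32 ± 0.05 SE, adjusted p = 4.66e-05). RSEM divides reads that match several loci by estimation, so reads of the 7 loci and of the matching part of Cdh11 cannot be fully told apart in this table. How much of the FR value of Cdh11 came from these loci was not tested. Added together, Cdh11 and the 7 loci had 515 ± 13.8 CPM in FR and 784 ± 6.01 CPM in WT, which is 1.52-fold higher in WT. This sum takes in whole loci, not only the stretches shared with Cdh11, and sets no bound on the fall of Cdh11.

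**Figure D3:**
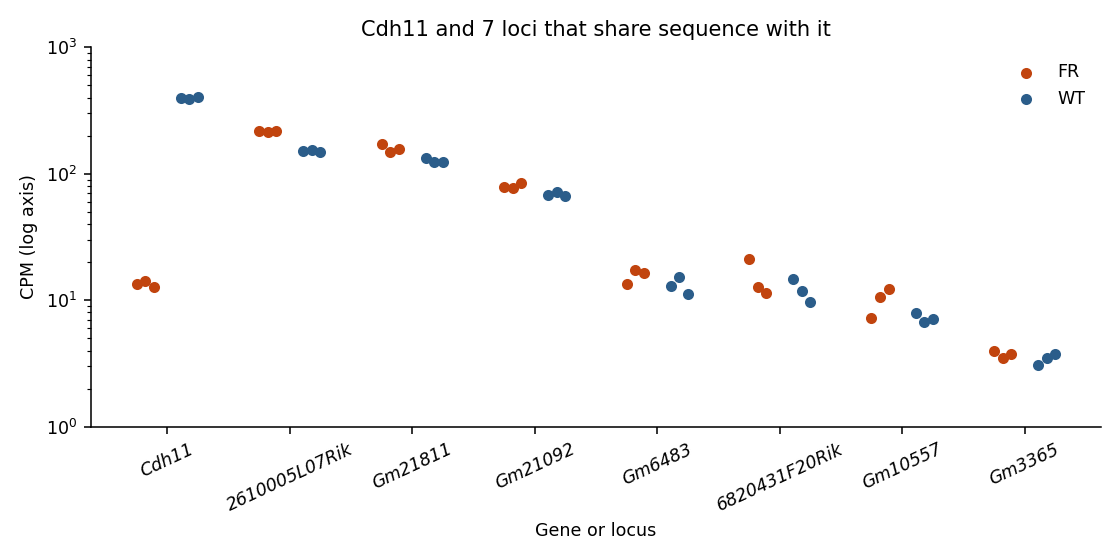
CPM on a log axis of Cdh11 and of 7 loci that share sequence with it, with 3 FR points left of 3 WT points for each. Cdh11 is the single locus at which FR lies below WT without overlap, at 13.5 against 400 CPM on average.

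Genes next to Cdh11 did not share its fall. The 10 nearest tested protein-coding genes on each side in the GENCODE M21 gene order had a median log2 fold change of 0.18, from -0.89 to 0.74, of which 12 were higher, 5 were lower and 3 did not pass. Got2, the nearest on one side, had a log2 fold change of 0.29, and Cdh5, the nearest on the other, had 0.74 and did not pass. For Cdh2 the 20 neighbours had a median of -0.19, from -3.99 to 0.82, with 12 lower, 3 higher and 5 not passing. Both counts stand beside 34.6% higher and 35.5% lower over all tested genes.

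The other 13 cadherins with a Cdh number were added to see which cadherins remained in FR. Of these, 4 were tested, of which 2 rose and 2 fell, and 7 had no count in any library. Among all tested genes 34.6% rose and 35.5% fell. Cdh19, a type II cadherin known from Schwann cell precursors and other neural crest derivatives, had 86.3, 76.9 and 76.8 CPM in the FR libraries, against 46.5, 43.6 and 46.4 CPM in the WT libraries. All FR libraries lay above all WT libraries (log2 fold change 0.81 ± 0.05 SE, edgeR adjusted p = 3.17e-14). Cdh24, another type II cadherin, had 16.05, 16.7 and 16.8 CPM in the FR libraries, against 6.74, 6.87 and 6.67 CPM in the WT libraries. It rose by 1.29 ± 0.09 SE on the log2 scale (adjusted p = 3.36e-13). Cdh26 had 0.779, 0.999 and 0.803 CPM in FR, against 6.38, 7.30 and 6.59 CPM in WT, and fell (-2.95 ± 0.18 SE, adjusted p = 2.20e-14). Cdh17, known from intestine and liver, was at 0.478 ± 0.0841 CPM in FR and 0.951 ± 0.123 CPM in WT and fell (-0.995 ± 0.358 SE, adjusted p = 0.0152).

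Ordered by TPM, which scales counts to gene length and depth, the FR cadherins ran from Cdh2 at 57.0 ± 1.17 TPM through Cdh19 at 39.5 ± 3.13, Cdh24 at 9.15 ± 0.156 and Cdh11 at 4.62 ± 0.224 to Cdh26 at 0.574 ± 0.0742 TPM (SD, n = 3). In WT the order ran from Cdh11 at 143 ± 2.61 TPM through Cdh2 at 67.0 ± 1.44, Cdh19 at 23.4 ± 0.976 and Cdh26 at 4.71 ± 0.311 to Cdh24 at 3.90 ± 0.0713 TPM. Neighbours in each of these orders did not overlap between libraries. Below them, Cdh17, Cdh5, Cdh1, Cdh3, Cdh23, Cdh13, Cdh15 and Cdh6 followed in FR, each overlapping the next. In WT, Cdh17 and Cdh1 stood apart from each other and from Cdh5, while Cdh5, Cdh3, Cdh13, Cdh23, Cdh4 and Cdh16 each overlapped the next. All 23 cadherins summed to 112 ± 4.18 TPM in FR and 243 ± 3.74 TPM in WT. Without Cdh11 the sum of the other 22 was 107 ± 4.15 TPM in FR and 100.4 ± 1.34 TPM in WT. Of the 23, Cdh2 made up 51.0% in FR and 27.6% in WT on average, Cdh19 made up 35.3% in FR and 9.64% in WT, and Cdh11 made up 4.13% in FR and 58.7% in WT.

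The catenins, which couple cadherins to the cytoskeleton, moved in both directions. Of 10 listed, 6 were tested, of which 4 rose, 1 fell and 1 did not pass, and Arvcf was not analysed here. Among all tested genes 34.6% rose and 35.5% fell. The median log2 fold change was 0.14. Ctnnd1, or p120-catenin, which stabilises cadherins at the surface, had 180, 179 and 175 CPM in the FR libraries, against 294, 291 and 306 CPM in the WT libraries. It fell by 0.74 ± 0.03 SE on the log2 scale (edgeR adjusted p = 2.07e-19). Jup, or plakoglobin, which can take the place of beta-catenin at junctions, had 42.9, 42.2 and 47.1 CPM in FR, against 17.2, 15.9 and 18.3 CPM in WT. It rose by 1.36 ± 0.06 SE (adjusted p = 1.24e-17), with no overlap between the groups. Ctnnb1, beta-catenin itself, rose slightly, to 694 ± 10.9 CPM in FR against 645 ± 4.94 CPM in WT (log2 fold change 0.11 ± 0.02 SE), and so did Ctnna1, alpha-catenin (0.16 ± 0.03 SE). Ctnnal1, a relative of alpha-catenin, rose by 0.63 ± 0.05 SE. Pkp4, an armadillo protein of junctions, had a log2 fold change of -0.06 ± 0.04 SE and did not pass (adjusted p = 0.183).

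Of the 12 junction linkers and nectins listed, 11 were tested, of which 7 rose, 2 fell and 2 did not pass (the list's median log2 change was 0.14). The shares over all tested genes were 34.6% higher and 35.5% lower. Nectin1, a cell adhesion molecule of adherens junctions, had 51.9 ± 1.39 CPM in FR and 16.9 ± 0.729 CPM in WT (1.62 ± 0.05 SE). Limd1, a LIM-domain protein, had 87.8 ± 1.28 CPM in FR and 64.4 ± 2.35 CPM in WT (0.45 ± 0.04 SE). Actn1, the actin crosslinker alpha-actinin, had 217 ± 3.43 CPM in FR and 353 ± 1.31 CPM in WT (-0.70 ± 0.03 SE).

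All 6 transcription factors listed as repressors of Cdh1 in epithelial cells were tested, of which 4 fell and 2 rose. Over all tested genes 35.5% fell and 34.6% rose. Snai1 had 15.1 ± 0.377 CPM in FR and 32.1 ± 1.15 CPM in WT (log2 fold change -1.09 ± 0.06 SE). Zeb1 had 48.2 ± 0.247 CPM in FR and 94.1 ± 4.93 CPM in WT (-0.96 ± 0.04 SE). Zeb2 (-0.51 ± 0.04 SE) and Snai2 (-0.28 ± 0.07 SE) also fell. Twist1 rose by 0.45 ± 0.05 SE, and Twist2 rose by 0.81 ± 0.06 SE, with 35.3 ± 1.958 CPM in FR and 20.2 ± 0.977 CPM in WT (SD, n = 3 each). Cdh1 had at most 11 counts in any FR library and at most 18 in any WT library. Its relation to these factors was not tested.

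Of the 12 genes for cadherin cleavage and turnover, which include the shedding proteases and gamma-secretase, 3 rose, 6 fell and 3 did not pass (the list's median log2 change was -0.22). Across all tested genes 34.6% rose and 35.5% fell. Ncstn, the nicastrin subunit of gamma-secretase, had 51.4 ± 1.53 CPM in FR and 87.0 ± 0.775 CPM in WT (-0.76 ± 0.04 SE). The metalloprotease gene Adam15 had 124 ± 3.68 CPM in FR and 99.2 ± 0.458 CPM in WT (0.32 ± 0.03 SE).

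Of 12 genes known as targets of beta-catenin, 6 were tested, of which 3 rose and 3 fell (the list's median log2 change was -0.12). In the whole set of tested genes 34.6% rose and 35.5% fell. Ccnd1, cyclin D1, had 234 ± 6.29 CPM in FR and 703 ± 11.6 CPM in WT (-1.58 ± 0.03 SE). Myc had 141 ± 3.07 CPM in FR and 78.9 ± 2.20 CPM in WT (0.83 ± 0.03 SE). Znrf3, a membrane inhibitor of Wnt signalling, had 29.4 ± 2.54 CPM in FR and 22.3 ± 0.338 CPM in WT (0.40 ± 0.06 SE). Axin2, named after its values were seen, had 4, 3 and 1 counts in the FR libraries, against 23, 34 and 22 in the WT libraries. It passed the low-count filter only through WT, so its fold change is not given as a result. Rnf43, of the same list and also named afterwards, had 13, 28 and 28 counts in FR, against 8, 8 and 7 in WT. Its pass came only through FR. Axin2 is counted among the 3 that fell and Rnf43 among the 3 that rose. The directions of both were tied to the filter, so the counts and the median of this list carry that limit.

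**Figure D4:**
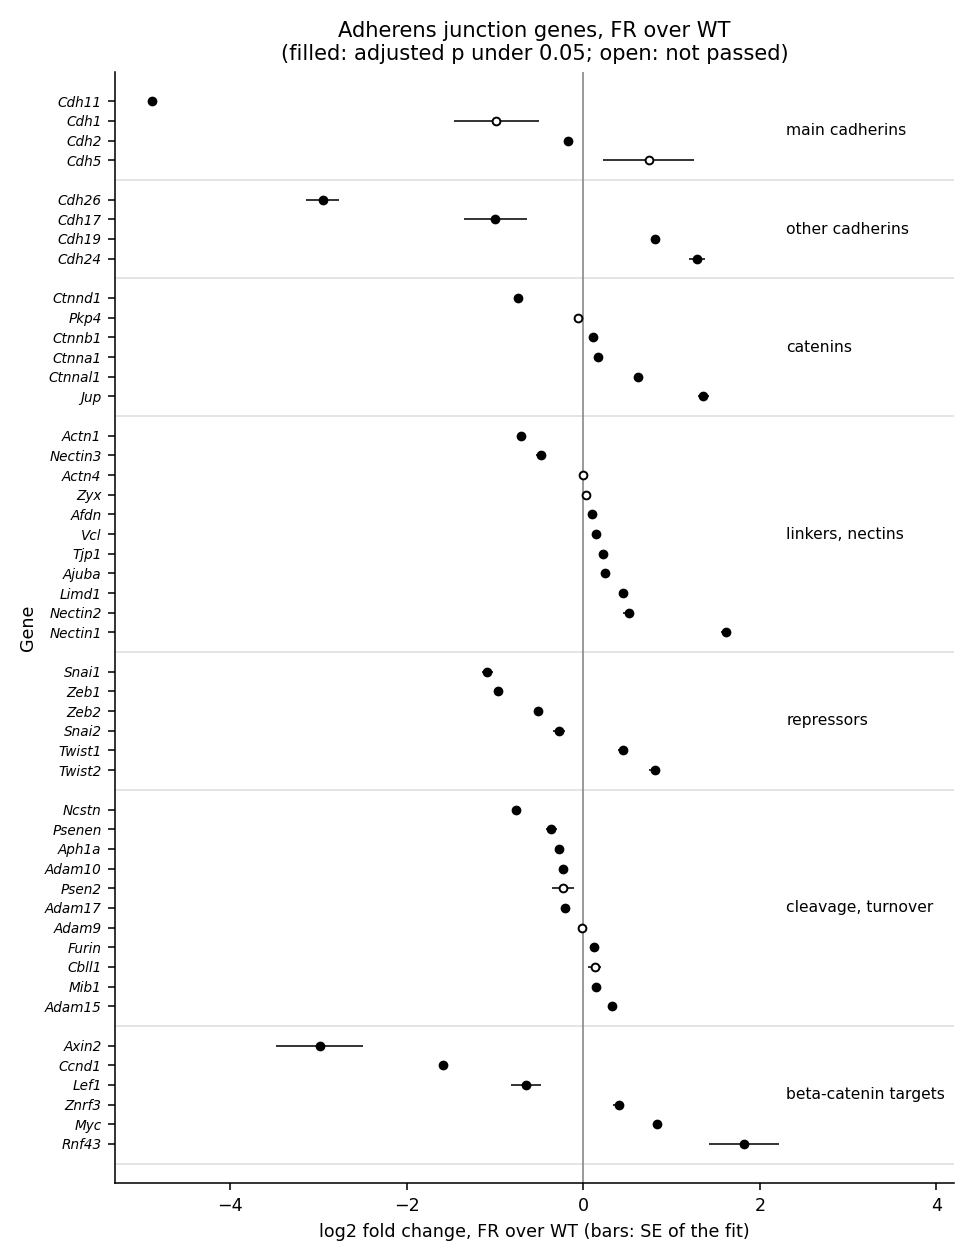
Log2 fold change, FR over WT, with standard-error bars, for the tested cadherin and adherens junction genes reported here, grouped by list; filled points passed the edgeR test at an adjusted p under 0.05 and open points did not. Cdh11 at -4.89 lies farthest from 0.

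The 5 named genes whose levels over the 6 libraries lay closest to those of Cdh11 were Timp3, Capn6, Sulf2, Cxcl12 and Pappa2, by Euclidean distance of log2(CPM + 0.5). Timp3, a metalloproteinase inhibitor, was at a distance of 0.99, with 20.2 CPM in FR and 403 CPM in WT on average. Capn6, a member of the calpain family, was at 1.27 and had 21.9 CPM in FR and 347 CPM in WT. Sulf2, a heparan sulfate sulfatase, was at 1.38, with 8.93 CPM in FR and 272 CPM in WT. Cxcl12, a chemokine, was at 1.52, and Pappa2, a protease that cuts IGF-binding proteins, was at 1.61. With 2 groups of 3 libraries this likeness rests on the group difference and describes the levels only.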

How the data were processed

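RNA was taken from 6 libraries of MC3T3-E1 cells, selected for poly(A) and sequenced as paired reads of 150 bases, per the labels' protocols. Per the submitters' processing notes, fastp, HISAT and RSEM were used with build GRCm39; versions, settings and strand use are not given in the sources used here. The authors deposited expected counts per gene, not scaled to depth, and a gene length. RSEM estimates how reads are divided among matching loci.

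Expected counts were rounded, filtered with filterByExpr and scaled by TMM factors in edgeR 4.0.16 (R 4.3.3), which left 14889 genes. FR was set against WT in a quasi-likelihood F-test (robust fit), with Benjamini-Hochberg adjustment over all tested genes and a threshold of 0.05. Each log2 fold change is FR over WT, and its SE comes from that model. Steps were tested on simulated counts. Single values per library were compared by exact permutation. Loci were aligned with Biopython 1.88 to GENCODE M21 transcripts (GRCm38), and no coordinates are given. Promoter sequences were at hand for 3 of the 10 members and were not used. Alternatives used limma 3.58.1 and DESeq2 1.42.0; figures were drawn with matplotlib 3.10.9.

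The members, lists and tests were chosen with earlier results of these data known. All 10 members are named, all tested catenins and repressors, and of each other list the 3 members of smallest adjusted p, with the smallest in the other direction where these share a sign. Cdh17, Axin2, Rnf43 and the single marker genes were named after their values were seen. A gene of the cleavage and turnover list is counted with it but not reported here by name. Replicate pairs differed by 2.34 to 3.37 times the sampling noise, so no library is a copy of another.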

Additional observations from a re-analysis of the deposited data

How the results depend on the processing

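The fall of Cdh11 and the small fall of Cdh2 kept their direction and passed the test under each of the 15 alternatives tried: other scaling, other filters, a fit that is not robust, DESeq2, limma-voom, the replicate number as a block, the 10 most abundant genes left out and each library left out. The log2 fold change of Cdh11 ranged from -4.94 to -4.85 and that of Cdh2 from -0.21 to -0.15 with 1 library left out. Between 2 and 3 members were then called, and 9968 to 10221 genes in all, against 10440. For the named genes 415 values kept direction and side of the threshold, and 3 passed that had not, 2 of Cdh1 and 1 of Cdh5, as given above. Counts not divided by length gave a difference in the Cdh11 share, FR minus WT, of -62.6 percentage points, against -60.4 with length, and a difference in the summed signal of -405 CPM. Without Cdh11 the summed signal differed by -3.82 CPM per kilobase. With 1 library left out, the share differed by -60.6 to -60.1 points, the sum by -72.9 to -71.1 CPM per kilobase and the log2 ratio of Cdh11 to Cdh2 by -4.76 to -4.68. Same-numbered libraries did not deviate together (correlations -0.028 to -0.0039), which cannot show whether they shared a culture or a run. With the replicate block, 10292 genes were called and Cdh11 was at -4.89. At this depth Cdh1, Cdh3, Cdh5 and Cdh13 had at most 18 counts in any library, and Cdh4, Cdh6, Cdh10 and Cdh15 lay under the floor of 3 counts in every library, so only large changes in them could be detected.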
